A study of Arabidopsis thaliana with 12 samples.

Results

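The 10 genes described here encode enzymes and carriers of the photorespiratory cycle, and were taken by locus code from a table of 33602 Arabidopsis thaliana loci. They are PGLP1 (AT5G36700), GGT1 (AT1G23310), GGT2 (AT1G70580), AGT1 (AT2G13360), HPR1 (AT1G68010), HPR2 (AT1G79870), GLYK (AT1G80380), PLGG1 (AT1G32080), BOU (AT5G46800) and DIT1 (AT5G12860). All 10 had enough counts to be tested, as had 18967 loci in all. The set was named for the peroxisome and the chloroplast, but that name is not exact for every gene, since HPR2 is a cytosolic enzyme and BOU a carrier of the mitochondrial inner membrane.

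Photorespiration starts when Rubisco fixes oxygen in place of CO2, which yields phosphoglycolate. A phosphatase in the chloroplast turns it into glycolate, peroxisomal enzymes carry it on to glycine, mitochondria convert glycine to serine, and peroxisomes and chloroplasts return the carbon as glycerate and phosphoglycerate. The flow is low in CO2-rich air and high in strong light in ambient air, and in leaves it is a main source of peroxisomal hydrogen peroxide.

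Leaf mRNA of Columbia-0 plants aged 3 weeks was sequenced from lines carrying mutations in CAT2, the main leaf catalase, together with GOX1 or GOX2, which encode glycolate oxidases. The titles spell the catalase allele cat2-2, and the lines are written here as cat2 gox1 or cat2 gox2. The cat2 mutation is common to all groups, so no group with an intact CAT2 gene was part of these comparisons. Each group also carried a mutation in GOX1 or GOX2, so none had both of these genes intact. The high CO2 groups were kept in air with 3000 ppm CO2 at an irradiance of 120 µmol per square metre and second, with days of 16 h and nights of 8 h. The high light groups were then moved to ambient air with 400 ppm CO2 for 3 h, at an irradiance of 1200 µmol per square metre and second, so light, CO2 and elapsed time changed together and their effects cannot be told apart. Each of the 4 groups had 3 libraries, each from pooled leaves of 15 plants, and the whole set-up was repeated for each biological repeat.

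Total counts were between 19571516 and 25314811 per library, and levels are given as CPM, the usual depth-scaled unit, on the scaled library total. The mutated genes were lower in the line named for them, with GOX1 at 128 to 284 CPM in cat2 gox1 and 943 to 2197 CPM in cat2 gox2. GOX2 was at 451 to 1199 CPM in cat2 gox1. Of the cat2 gox2 libraries, 5 held GOX2 at 6.98 to 16.8 CPM, but it was at 122 CPM in the second repeat under high light. That library stands apart from its group, and calls of members that changed without it are given with them. CAT2 was at 44.0 to 120 CPM in all 12 libraries. The third repeats also stood apart, and are described with the genes they touch.

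Summed over the 5 marker genes of each list, leaf mesophyll markers were at 19585 to 80363 CPM and root markers at 0 to 0.431 CPM. The root genes PYK10, COBL9, PRX57, EXPA7 and IRT1 were each at 0 in all libraries of at least 1 group. The mesophyll sum in cat2 gox1 was 44029 to 67972 CPM under high CO2 against 19585 to 33577 CPM in high light, and in cat2 gox2 it was 48592 to 80363 CPM against 27031 to 36391 CPM. All 5 mesophyll markers were called lower in high light in each line, whereas the summed guard cell, phloem and dividing cell markers overlapped between conditions within each line. Of 5 guard cell markers 2 were called lower and 1 higher in each line, of 5 phloem markers 2 lower and 1 higher in cat2 gox1 and 1 higher in cat2 gox2, and of 5 dividing cell markers 0. The part of these markers in the results below was not tested, and in pooled leaves fewer cells of a type and less RNA per cell cannot be told apart.

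The 4 peroxisomal enzymes differ from the cytosolic HPR2 at the end of their coding sequence, where a peroxisome targeting signal is encoded. The last 3 codons before the stop codon are in capitals in these coding ends, which were read from the TAIR10.1 annotation of RefSeq.
GGT1: tttggttatTCGAAAATGtga
GGT2: tttggttacTCCAGAATGtga
AGT1: ctcattcccTCTAGAATCtaa
HPR1: ttgcctgttTCGAAGCTAtga
HPR2: cttctgactCCGGTCGTCtga

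Most of the 10 genes were lower in high light than under high CO2 in both lines. In cat2 gox1, 8 were called lower and 0 higher by edgeR's quasi-likelihood test at an adjusted p under 0.05, where 26.5% of all genes tested were called lower. In cat2 gox2, 8 were also called lower and 0 higher, against 29.2% of all genes called lower. Of the 18967 genes tested, 4858 were called higher in cat2 gox1 and 5260 in cat2 gox2. The median log2 change of the 10 was -0.88 in cat2 gox1 and -0.92 in cat2 gox2, beside medians of -0.06 and -0.09 over all genes. Of the genes called, 4 fell more than 2-fold in cat2 gox1 and 2 did in cat2 gox2, beside 11.5% and 12.9% of all genes tested. Together the 10 genes held 0.740 to 0.868% of the counts of a library under high CO2 and 0.437 to 0.475% in high light, without overlap. GGT1 and AGT1 gave the most counts to this share in every library, and PGLP1 the fewest.

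**Figure D1:**
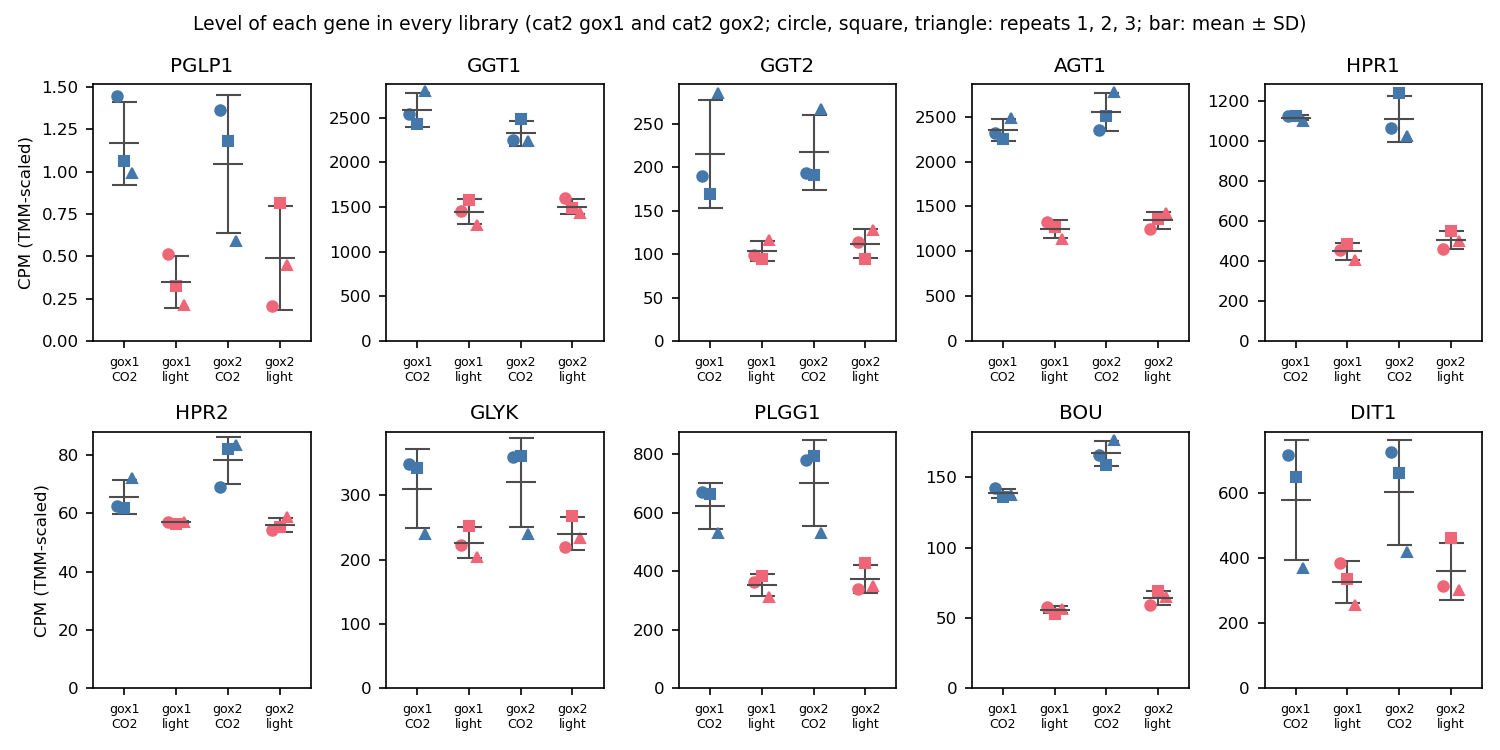
Level of each gene in CPM (vertical axes, starting at 0) in the 12 libraries, with cat2 gox1 on the left of each panel, cat2 gox2 on the right, high CO2 in blue and high light in red; circles, squares and triangles are repeats 1, 2 and 3, and bars are the mean ± SD of 3 libraries. The conditions are well separated for BOU and HPR1, and overlap for GLYK and DIT1 in both lines.

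The order of levels was judged per kilobase of exon, since longer transcripts collect more counts. GGT1 and AGT1 stood at the top under high CO2 in cat2 gox1, at 1173 ± 85.7 and 1128 ± 57.9 CPM per kb (SD, n = 3), and their libraries overlapped. In cat2 gox2 under high CO2 they did not overlap, with AGT1 at 1224 ± 102 and GGT1 at 1054 ± 64.5 CPM per kb. HPR1 followed at 623 ± 7.93 CPM per kb in cat2 gox1 under high CO2, clear of its neighbours in all 4 groups. PLGG1 and DIT1 came next in every group and overlapped each other, at 310 ± 39.3 and 242 ± 77.2 CPM per kb in that group. GLYK was sixth in all groups, overlapping the gene below it under high CO2 and clear of it in high light. GGT2, BOU and HPR2 lay below it in an order that changed with the condition, with HPR2 the lowest of them under high CO2 and BOU in high light. PGLP1 was last in every group, at 0.165 to 0.552 CPM per kb, but that level may count only part of its reads, as described next.

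PGLP1 encodes the chloroplast phosphoglycolate phosphatase, the entry enzyme of the cycle. The gene lies on the minus strand of chromosome 5 in TAIR10.1, from 14421182 to 14424610, and has a close copy, PGLP1B, at 14480482 to 14483927. The 1089 coding bases of the copies are identical, and 94.1% of the 50-base words of the PGLP1 transcript also occur in that of PGLP1B. How reads with several alignments were counted is not given in the sources used here, so the PGLP1 level is uncertain.

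PGLP1 had 28, 23 and 25 counts under high CO2 and 12, 7 and 5 in high light in cat2 gox1. In cat2 gox2 it had 26, 24 and 12 counts under high CO2 and 4, 17 and 11 in high light. The conditions were apart in cat2 gox1, and overlapped in cat2 gox2 through the second repeat under high light and the third under high CO2. The log2 change was -1.72 ± 0.48 (SE) in cat2 gox1, with an adjusted p of 0.0118, and -1.08 ± 0.47 in cat2 gox2, with an adjusted p of 0.0718. Without the second high light repeat of cat2 gox2, the library in which GOX2 stood apart, the change in that line was -1.62 with an adjusted p of 0.022. Without the third high CO2 repeat of cat2 gox2 it was -1.37 with an adjusted p of 0.0293. Leaving out any other single library left it uncalled, at as little as -0.74 and with adjusted p up to 0.214, and of 23 alternatives 5 called it. With the counts of PGLP1 and PGLP1B summed, the change was -1.51 in cat2 gox1 (adjusted p = 0.00786), and for cat2 gox2 it was -1.19 (adjusted p = 0.0206). PGLP1B itself was at only 2.33 ± 0.312 and 2.93 ± 1.05 CPM under high CO2 in cat2 gox1 and cat2 gox2. If reads aligning to both copies were left out of the counts, the sum does not bring them back, so it does not settle the level.

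PLGG1 is the glycolate and glycerate transporter of the chloroplast envelope. In cat2 gox1 it was at 673, 663 and 532 CPM under high CO2 and at 364, 386 and 313 CPM in high light. The CPM values in cat2 gox2 were 781, 795 and 532 under high CO2 against 341, 428 and 350 CPM in high light. All high light libraries were below all high CO2 libraries, although the third repeat was the lowest of each high CO2 group. PLGG1 fell by 0.81 ± 0.18 on the log2 scale in cat2 gox1 (adjusted p = 0.00306) and by 0.91 ± 0.18 in cat2 gox2 (adjusted p = 0.00123).

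GGT1 and GGT2 encode glutamate:glyoxylate aminotransferases, which make glycine from glyoxylate in the peroxisome, and GGT1 is the main leaf form. GGT1 was at 2539, 2427 and 2796 CPM under high CO2 and at 1457, 1584 and 1300.2 CPM in high light in cat2 gox1. The cat2 gox2 libraries were at 2246, 2488 and 2237 CPM under high CO2 and at 1602, 1485 and 1429 CPM in high light. The conditions were apart in both lines. GGT1 fell by 0.84 ± 0.13 on the log2 scale in cat2 gox1 (adjusted p = 0.000285) and by 0.63 ± 0.13 in cat2 gox2 (adjusted p = 0.00155).

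GGT2 was at 190.2, 169 and 285 CPM under high CO2 and at 99.3, 94.1 and 117 CPM in high light in cat2 gox1. In cat2 gox2 the levels were 194, 191 and 267 CPM under high CO2 against 114, 94.2 and 127 CPM in high light. The conditions were apart in both lines, and the third repeat was the highest of each of the 4 groups. GGT2 fell by 1.06 ± 0.21 on the log2 scale in cat2 gox1 (adjusted p = 0.00183) and by 0.96 ± 0.21 in cat2 gox2 (adjusted p = 0.00277). Without the third repeats of both high CO2 groups the changes were -0.67 (adjusted p = 0.00232) and -0.69 (adjusted p = 0.00174). Without the second high light repeat of cat2 gox2, GGT2 in that line was at -0.85 (adjusted p = 0.0138).

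The coding sequences of GGT1 and GGT2 are 86.9% identical over 1446 bases, and no 50-base word is shared between their transcripts. The ratio of GGT1 to GGT2 per kb was 13.8 ± 2.66 under high CO2 and 15.7 ± 3.16 in high light in cat2 gox1 (SD, n = 3), and 12.1 ± 2.64 and 15.1 ± 2.53 in cat2 gox2. Its libraries overlapped between conditions, and an exact two-sided permutation test of the ratio gave p = 0.4 and p = 0.3, where the smallest p that 3 against 3 libraries allow is 0.1. Within each repeat number the ratio was higher in high light, in 6 of 6 comparisons, by 1.46 to 2.68 in cat2 gox1 and by 2.68 to 3.14 in cat2 gox2. That comparison by number was made after the values were seen and takes the numbers as pairs, which the labels do not state.

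GGT1 and GGT2 were the only members with the G-box, CACGTG, within 250 bases before to 50 bases after the annotated gene start. The motif reads the same on both strands and occurs in 7.68% of 27443 such windows. It is in capitals in these 100-base stretches from 160 to 61 bases before the start, taken from RefSeq's TAIR10.1 assembly, and a match of letters is no evidence of binding.
GGT1 (minus strand, chr1:8272082-8272181): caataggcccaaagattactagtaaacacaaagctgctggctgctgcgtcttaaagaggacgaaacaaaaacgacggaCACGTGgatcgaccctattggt
GGT2 (plus strand, chr1:26612199-26612298): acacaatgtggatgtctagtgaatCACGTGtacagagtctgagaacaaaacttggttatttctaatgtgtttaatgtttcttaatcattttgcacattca

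AGT1 encodes the peroxisomal serine:glyoxylate aminotransferase, which makes hydroxypyruvate from serine. It was at 2316, 2249 and 2484 CPM under high CO2 and at 1332, 1269 and 1142 CPM in high light in cat2 gox1. The CPM values in cat2 gox2 were 2357, 2512 and 2778 under high CO2 against 1246, 1363 and 1425 CPM in high light. The conditions were apart in both lines. The fitted fall was of like size in both lines, 0.91 ± 0.13 on the log2 scale in cat2 gox1 (adjusted p = 0.000143) and 0.92 ± 0.13 in cat2 gox2 (adjusted p = 9.9e-05).

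HPR1, the peroxisomal hydroxypyruvate reductase that turns hydroxypyruvate into glycerate, fell more than the other peroxisomal members in fitted size. It was at 1122, 1124 and 1099 CPM under high CO2 and at 454, 485 and 404 CPM in high light in cat2 gox1. The cat2 gox2 libraries were at 1063, 1238 and 1024 CPM under high CO2 and at 459, 549.6 and 502 CPM in high light. The conditions were far apart in both lines, with log2 falls of 1.32 ± 0.13 (adjusted p = 1.26e-05) and 1.14 ± 0.13 (adjusted p = 2.28e-05).

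HPR2, the cytosolic hydroxypyruvate reductase that can stand in for HPR1, was the least changed of the 10 in cat2 gox1. It was at 62.7, 62.0 and 72.2 CPM under high CO2 and at 57.1, 56.5 and 57.2 CPM in high light in that line. In cat2 gox2 the levels were 68.9, 82.3 and 83.6 CPM under high CO2 against 54.2, 55.3 and 58.7 CPM in high light. The conditions were apart in both lines, but the log2 change of -0.21 ± 0.10 in cat2 gox1 was not called (adjusted p = 0.121), while HPR2 fell by 0.48 ± 0.11 in cat2 gox2 (adjusted p = 0.00235). Without the third repeats of both high CO2 groups the changes were -0.01 (adjusted p = 0.962) and -0.34 (adjusted p = 0.0176). The difference between the responses of the lines was -0.28, with a 95% interval from -0.60 to 0.05 and an adjusted p of 0.606.

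The ratio of HPR1 to HPR2 per kb was 12.9, 13.0 and 10.9 under high CO2 and 5.72, 6.17 and 5.08 in high light in cat2 gox1. In cat2 gox2 it was 11.1, 10.8 and 8.81 under high CO2 and 6.09, 7.15 and 6.15 in high light. High light libraries were below all high CO2 libraries in each line, and an exact two-sided permutation test gave p = 0.1 in each, the smallest that 3 against 3 libraries allow. The third repeat had the lowest ratio of its group in 3 of the groups.

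**Figure D2:**
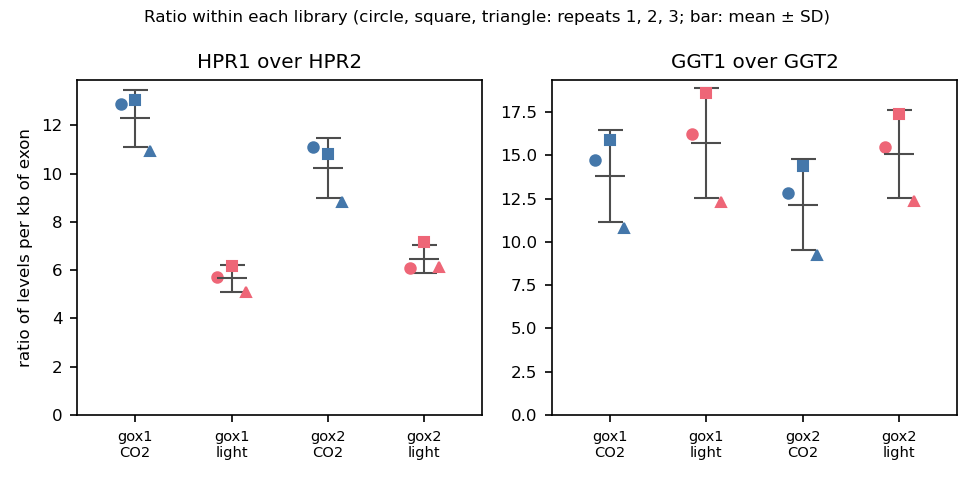
Ratio of levels per kb of exon in each library for HPR1 over HPR2 (left) and GGT1 over GGT2 (right), vertical axes starting at 0; circles, squares and triangles are repeats 1, 2 and 3, bars the mean ± SD. The mean HPR1 to HPR2 ratio was 12.3 and 10.2 under high CO2 and 5.66 and 6.46 in high light, naming cat2 gox1 before cat2 gox2, whereas the GGT1 to GGT2 ratio overlaps between conditions.

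GLYK encodes glycerate kinase, which returns the carbon to the Calvin cycle in the chloroplast. It was at 349, 342 and 240.1 CPM under high CO2 and at 223, 252 and 205 CPM in high light in cat2 gox1. The CPM values in cat2 gox2 were 359, 361 and 240.0 under high CO2 against 219, 269 and 234 CPM in high light. The third repeat under high CO2 lay within the range of the high light libraries in both lines. The log2 changes of -0.45 ± 0.19 and -0.41 ± 0.19 were not called (adjusted p = 0.0681 and 0.0884). Without the third repeats of both high CO2 groups they were -0.48 (adjusted p = 0.0108) and -0.49 (adjusted p = 0.00941). Leaving out the third high CO2 repeat of cat2 gox1 alone gave -0.59 (adjusted p = 0.0177) in that line, and leaving out that of cat2 gox2 gave -0.58 (adjusted p = 0.0169) in cat2 gox2 and an adjusted p of 0.0353 in cat2 gox1.

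BOU, a mitochondrial carrier needed for normal photorespiration in young plants, was among the genes with the largest and least variable falls. It was at 142, 136 and 138 CPM under high CO2 and at 57.9, 52.9 and 56.3 CPM in high light in cat2 gox1. The cat2 gox2 libraries were at 166, 159 and 176 CPM under high CO2 and at 58.9, 68.9 and 65.1 CPM in high light. No high light library came near a high CO2 library. BOU fell by 1.31 ± 0.10 on the log2 scale in cat2 gox1 (adjusted p = 2.08e-06) and by 1.38 ± 0.10 in cat2 gox2 (adjusted p = 8.47e-07).

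DIT1 is the 2-oxoglutarate and malate translocator of the chloroplast envelope, which links the cycle to ammonium refixation. It was at 717, 649.9 and 369 CPM under high CO2 and at 384, 337 and 257 CPM in high light in cat2 gox1. In cat2 gox2 the levels were 725, 663 and 421 CPM under high CO2 against 315, 462 and 303 CPM in high light. The third repeat under high CO2 was below 1 of the high light libraries in each line. DIT1 fell by 0.83 ± 0.29 on the log2 scale in cat2 gox1 (adjusted p = 0.0323) and by 0.75 ± 0.29 in cat2 gox2 (adjusted p = 0.0452).

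The DIT1 calls changed with the libraries used. In cat2 gox1 the call was lost without its high CO2 repeat 1 or 2 or its high light repeat 2 or 3, with adjusted p between 0.0704 and 0.122. In cat2 gox2 the call was lost without its high CO2 repeat 1 or 2 or its high light repeat 1 or 3. It was also lost without the second high CO2 repeat or the first or second high light repeat of cat2 gox1. Adjusted p for cat2 gox2 was between 0.0525 and 0.148 in these fits. Each fit repeated the filter, scaling, spread and adjustment, and which of them moved the call was not tested. Without the third repeats of both high CO2 groups DIT1 was at -0.94 (adjusted p = 0.003) and -0.85 (adjusted p = 0.00494).

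**Figure D3:**
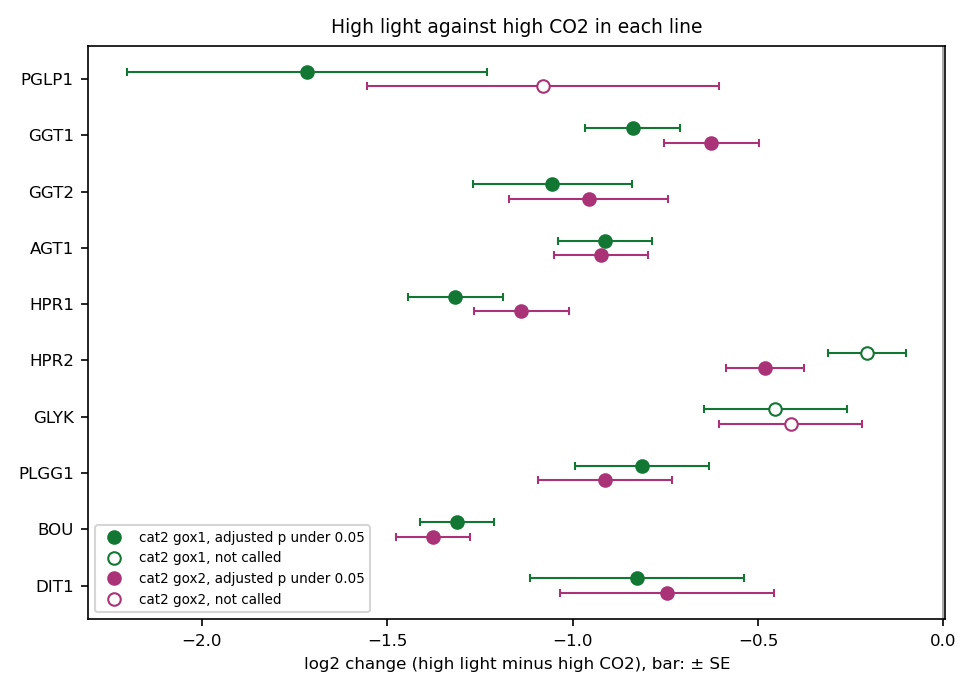
Log2 change from high CO2 to high light (horizontal axis) with its SE for each gene in cat2 gox1 (green) and cat2 gox2 (purple); filled points have an adjusted p under 0.05, open points do not. All points lie below 0, and BOU and HPR1 have large falls with small errors in both lines.

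The high light libraries were below all high CO2 libraries for 8 of the 10 genes in cat2 gox1 and for 7 in cat2 gox2, where 29.8% and 32.4% of all genes tested showed this. GLYK and DIT1 overlapped in both lines, and PGLP1 overlapped in cat2 gox2. The log2 change was below 0 for all 10 genes in both lines under every alternative run. Without the second high light repeat of cat2 gox2, in which GOX2 stood apart, 9 genes were called lower in that line, all but GLYK, and BOU was at -1.43 and HPR1 at -1.21. Over all genes, that fit called 10153 in cat2 gox2 in either direction, against 10793 with all libraries.

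Among 30 other photorespiration genes, all of them tested, 20 were called lower and 4 higher in high light in cat2 gox1, and 21 lower and 4 higher in cat2 gox2. Their median log2 changes were -0.66 and -0.77. Of all 18967 genes tested, 5022 were called lower and 4858 higher in cat2 gox1, and 5533 lower and 5260 higher in cat2 gox2. The largest falls among the 30 were those of GLDP2, a subunit of glycine decarboxylase, by 1.59 and 1.55 on the log2 scale (adjusted p = 1.90e-05 and 1.53e-05). PGLP1B was next in cat2 gox1 at -1.41 (adjusted p = 0.00956), from only 2.33 ± 0.312 CPM under high CO2. Its coding sequence is that of the member PGLP1, so its level is uncertain in the same way. In cat2 gox2, GLDP1, a paralog of GLDP2, was next at -1.34 (adjusted p = 4.54e-05). The largest rises among the 30 were those of GOX3, a further glycolate oxidase, at 2.53 in both lines (adjusted p = 0.0203 and 0.0194) from 0.641 ± 0.823 and 0.682 ± 0.711 CPM, and of mtLPD2, a mitochondrial lipoamide dehydrogenase, at 0.90 and 0.83 (adjusted p = 8.36e-05 and 0.000105). None of the 10 members rose.

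The lines were compared within each condition to ask whether the 10 genes stood at different levels in cat2 gox1 and cat2 gox2. Without a group in which GOX1 and GOX2 were both intact, the effect of losing either gene could not be measured. By edgeR, 0 of the 10 genes were called under high CO2, where 0.0158% of all genes were called, and 0 in high light, where 6.55% were. At an unadjusted p under 0.05 there were 2 under high CO2, HPR2 and BOU, where 2.69% of all genes were, and 0 in high light, where 20% were. DESeq2 and limma voom also called 0 in both. Leaving aside PGLP1 with its few counts, the fitted differences of cat2 gox2 from cat2 gox1 were between -0.16 and 0.27 on the log2 scale under high CO2, and between -0.02 and 0.21 in high light. The widest bounds of their 95% intervals were -0.57 and 0.69 under high CO2, and -0.49 and 0.77 in high light, all set by DIT1.

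BOU was the 1 gene of the 10 whose libraries did not overlap between the lines, and this held in both conditions. Libraries did not overlap for 8.1% of all genes under high CO2 and for 28% in high light. The difference of cat2 gox2 from cat2 gox1 for BOU was 0.27 ± 0.10 on the log2 scale under high CO2 (unadjusted p = 0.0184, adjusted p = 1) and 0.21 ± 0.10 in high light (unadjusted p = 0.0593, adjusted p = 0.275), and neither difference was called. For HPR2 it was 0.25 ± 0.10 under high CO2 (unadjusted p = 0.0333, adjusted p = 1), with overlap through the third repeat of cat2 gox1, and was at -0.02 ± 0.10 in high light.

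**Figure D4:**
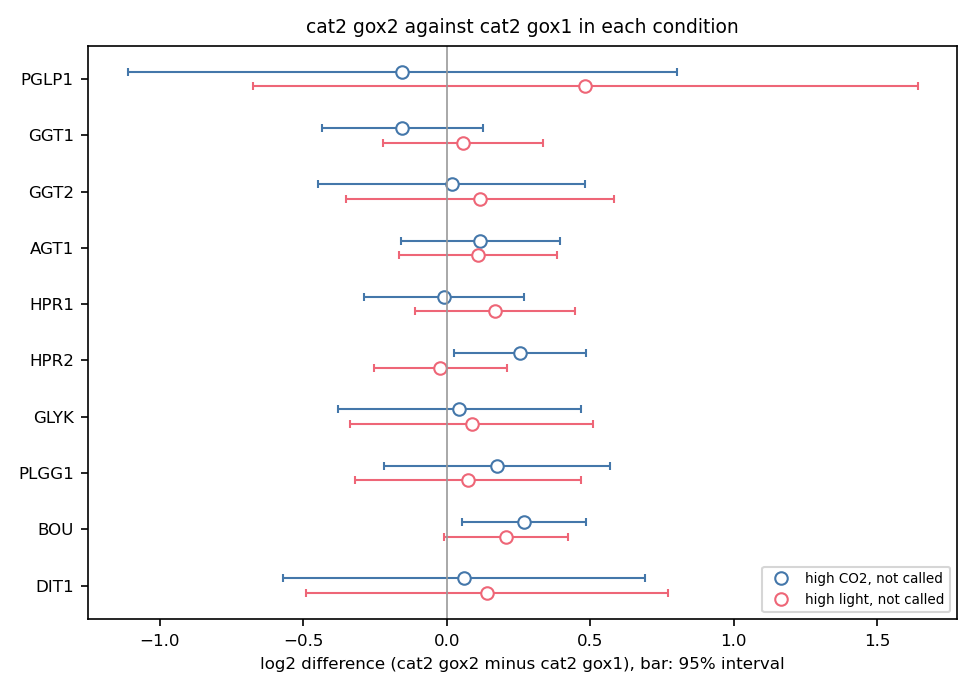
Log2 difference of cat2 gox2 from cat2 gox1 (horizontal axis) with its 95% interval for each gene under high CO2 (blue) and in high light (red); open points mark genes not called. The intervals include 0 except for HPR2 and BOU under high CO2, and are widest for PGLP1.

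The light responses of the lines were also compared with each other. The test of the difference called 0 of the 10 genes, where 1.04% of all genes were called, and DESeq2 and limma voom also called 0. At an unadjusted p under 0.05 there were 0 of the 10, beside 10.1% of all genes. Without the second high light repeat of cat2 gox2, 113 genes in all were called in place of 197, and 776 in place of 1243 between the lines in high light, with 0 of the 10 in each. Without PGLP1, the differences were between -0.28 for HPR2 and 0.21 for GGT1 on the log2 scale, and the widest interval was that of DIT1, from -0.81 to 0.97. The narrowest was that of BOU, from -0.37 to 0.24. These comparisons share libraries with the light responses above and are not separate evidence.

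The members differed in how the third repeat stood to the other two. Under high CO2, the third repeat minus the mean of the first and second was -0.89 on the log2 scale for DIT1 in cat2 gox1 and -0.72 in cat2 gox2. For PGLP1, with its few counts, it was -0.30 and -0.999, and in high light -0.73 and 0.05. For GGT2 it was 0.67 and 0.47. GLYK was at -0.53 and -0.59, and PLGG1 at -0.33 and -0.57. BOU, at -0.01 and 0.12, and HPR1, at -0.03 and -0.16, were near the first and second repeats. In high light the directions were the same for GGT2, at 0.27 and 0.30, and for DIT1, at -0.48 and -0.33, with smaller size. The median over all genes was within 0.0146 of 0 in each group. These medians were taken after scaling, which draws them towards 0, so they do not show how many genes shifted as far. Chi-square per degree of freedom between libraries under high CO2 was 61.6 to 97.8 for pairs with repeat 3. For repeats 1 and 2 it was 4.39 in cat2 gox1 and 11.7 in cat2 gox2. In high light it was 43.4 and 49.2 against 26.1 in cat2 gox1, and 12.7 and 31.7 against 35.6 in cat2 gox2. Whether the shifts were special to the members was not tested.

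**Figure D5:**
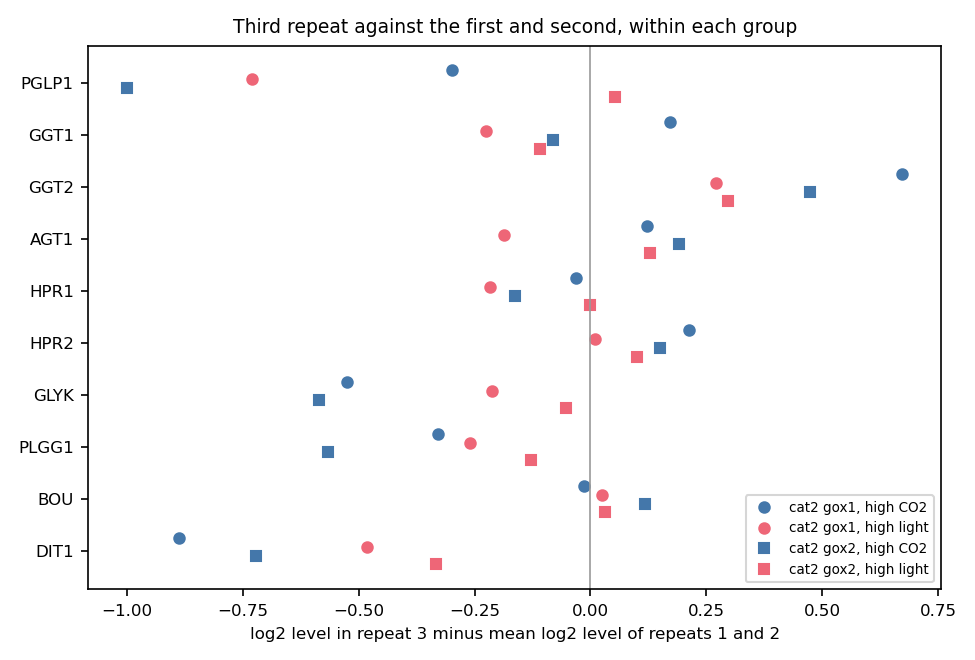
Log2 level of each gene in the third repeat minus the mean of the first and second repeats (horizontal axis), for cat2 gox1 (circles) and cat2 gox2 (squares) under high CO2 (blue) and in high light (red). GGT2 lies above 0 and DIT1, GLYK and PLGG1 lie below 0 in all 4 groups.

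Over the 12 libraries the members rose and fell together, with Pearson's r between 0.38 and 0.99 and a median of 0.85 over the 45 pairs, which all share the contrast of the conditions. Once each group's mean was subtracted, r was between -0.94 and 0.97 with a median of 0.12, and 17 pairs were below 0. GLYK, PLGG1 and DIT1 varied together within groups, at r of 0.92 to 0.97, and GGT2 varied against them, at -0.94 to -0.90. With these genes PGLP1, also of the chloroplast, was at 0.69 to 0.79. The peroxisomal HPR1 was at 0.57 to 0.73, and the cytosolic HPR2 at -0.69 to -0.58. These 12 deviations come from the same libraries, in which the third repeats stood apart, so they are given as a description, and the grouping was made after the values were seen.

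The genes whose pattern was most like that of each member were sought among the 13654 tested genes that averaged 5 CPM or more, by Pearson's r of log2 CPM over 12 libraries. HPR1 was closest to AT1G35340 (r = 0.996), AGT1 to TRXF1, a chloroplast thioredoxin (r = 0.996), and BOU to STH, a B-box protein (r = 0.995). PLGG1 was closest to AT2G01755 (r = 0.992), DIT1 to AT3G28460 (r = 0.991) and GGT1 to AT5G08570 (r = 0.990). GGT2 was closest to AT1G62250 (r = 0.986), GLYK to CSR1, the catalytic subunit of acetolactate synthase (r = 0.985), HPR2 to THI1, an enzyme of thiamine synthesis (r = 0.968), and PGLP1 to AT5G57170 (r = 0.963). Such likeness was common, since 1788 genes reached r over 0.9 with HPR1, and was rarest for HPR2, with 47 genes. Each r above is the highest among the 13654 genes and includes the shared contrast of the conditions. With each group's mean subtracted, r between a member and its closest gene was from 0.805 for GGT1 to 0.983 for DIT1. The mean pattern of the 10 was most like those of GAPA, the Calvin cycle's glyceraldehyde phosphate dehydrogenase (r = 0.997), Lhca5, an antenna protein of photosystem I (r = 0.994), AT4G30993 (r = 0.994), FBA1, a chloroplast aldolase (r = 0.993), and NPQ4, which encodes the photoprotective PsbS protein (r = 0.993).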

How the data were processed

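The deposited table holds whole-number read counts per gene for the 12 libraries. The labels describe stranded mRNA libraries. Per the submitters' processing notes, the tools were Trim Galore 0.3.3, TopHat2 2.1.0 and featureCounts of Subread 1.4.6, with the TAIR10 genome. Neither the strand setting nor the rule for multiply aligned reads is given in the sources used here, and reads shared by close copies can be lost or misplaced. Of its 33604 rows, 2 name no gene. Libraries were grouped by their titles.

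Counts were analysed with edgeR 4.0.16 in R 4.3.3. Genes passing filterByExpr (minimum count 10, minimum total 15) numbered 18967 and held 99.96% of counts. After TMM scaling, 1 quasi-likelihood model, with group means as its terms, took in all 12 libraries, with a biological coefficient of variation of 0.211. The 5 comparisons used two-sided tests, adjusted by Benjamini-Hochberg over all genes tested, at a threshold of 0.05. The SE is the log2 change divided by the square root of F. Log2 values used for likeness had a prior count of 2. In the 4 groups, pairs of libraries differed by more than sampling noise (chi-square per degree of freedom from 4.39 to 97.8), so none was counted as a repeat of another. The edgeR step was tested on simulated counts holding known changes. Sequences and exon lengths came from the TAIR10.1 assembly of RefSeq.

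The members, lists and tests were chosen with earlier results of these data known. The other genes named are the 2 largest rises and falls past the threshold among the 30 other photorespiration genes in each light response, the mutated genes, the copy of PGLP1 and the genes of most similar pattern. Alternatives covered scaling, filtering, DESeq2 1.42.0, limma 3.58.1 voom, a replicate block, and leaving out libraries. Leaving out the third repeat of all 4 groups was chosen after seeing the data.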

Additional observations from a re-analysis of the deposited data

How the results depend on the processing

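The number of the 10 genes called stayed within 1.5 times its main value under every alternative. Leaving out 1 library at a time gave 7 to 9 in cat2 gox1 and 7 to 10 in cat2 gox2, and 0 in the other 3 comparisons. Over all genes these fits called 8203 to 10739 in cat2 gox1 and 9282 to 11467 in cat2 gox2. Upper quartile scaling called all 10 in both lines. It moved the median of all genes from -0.06 to -0.21 in cat2 gox1 and from -0.09 to -0.31 in cat2 gox2. It also split the calls over all genes into 6500 lower and 3998 higher in cat2 gox1 (5022 and 4858 as reported) and 7527 and 4221 in cat2 gox2 (5533 and 5260). In high light, calls between lines split into 349 lower and 625 higher with library totals alone and 382 and 868 with upper quartile scaling, against 243 and 1000. Over all genes, the difference of light responses had 197 calls, 119 with library totals, 538 with DESeq2, 38 without the third repeats of all groups and 88 to 195 with 1 library left out. Under high CO2, 3 genes differed between lines, 5 by DESeq2 and 1 without the third repeats of all groups. In high light 1243 did, 2198 without the third high CO2 repeats and 721 to 1624 with 1 library left out. Among the 30 other photorespiration genes, 1 was called between lines under high CO2 and 2 without the second high light repeat of cat2 gox2. HPR2 in cat2 gox1 was called only with upper quartile scaling (-0.36, adjusted p = 0.0156) and was at -0.10 with library totals (adjusted p = 0.577), and the cause was not tested. DIT1 in cat2 gox2 lost its call with RLE scaling (adjusted p = 0.0572) and with no filter (adjusted p = 0.0503). The labels number the repeats but do not say that a number pairs libraries. Of 18 same-number pairs 13 had a correlation over 0.1 (-0.21 to 0.76), while pairs of unlike number were at -0.64 to 0.50. In 25 of 36 comparisons of a library with another group it correlated best with its own number. The correlations are of deviations from group means, and the third repeats stood apart, so they do not settle whether a number pairs libraries. With the replicate block, 9 genes were called in each line, GLYK among them, at -0.44 (adjusted p = 0.0186) and -0.39 (adjusted p = 0.0303). Over all genes the block called 11102 in cat2 gox1 and 11790 in cat2 gox2, against 9880 and 10793 as reported. The block called 0 of the 10 in the other 3 comparisons.

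Every value that changed sign was uncalled both as reported and under the alternative. PGLP1 moved furthest, from 0.48 to -0.0637 in high light without the second high light repeat of cat2 gox2. Between lines under high CO2, PGLP1 was at 0.0411 without the third high CO2 repeats, 0.0299 without the third repeat of all groups and 0.183 with its copy summed. HPR1 was at 0.00834 with RLE scaling, 0.00834 with DESeq2, 0.00271 with only the groups compared, 0.0543 without the third high CO2 repeats and 0.0409 without the third repeats of all groups. With library totals alone, under high CO2 GGT2 was at -0.0498 and GLYK at -0.0113, and in high light GGT1 was at -0.0515, GGT2 at -0.00755, AGT1 at -0.00364, GLYK at -0.0222 and PLGG1 at -0.0341. In the difference of light responses, GGT2 was at -0.0207 without the third high CO2 repeats. GLYK was at -0.0189 with upper quartile scaling, -0.0109 with library totals, -0.00713 without the third high CO2 repeats and -0.00503 without the third repeats of all groups. Leaving out 1 library gave, under high CO2, DIT1 -0.17 to 0.26, GGT2 -0.16 to 0.29, GLYK -0.10 to 0.21, HPR1 -0.10 to 0.0449 and PGLP1 -0.39 to 0.13. In high light it gave DIT1 -0.0799 to 0.27, GGT1 -0.0148 to 0.13, HPR2 -0.057 to 0.00209, PGLP1 -0.0637 to 0.87 and PLGG1 -0.0368 to 0.14. In the difference of responses it gave AGT1 -0.0696 to 0.0562, DIT1 -0.14 to 0.33, GGT2 -0.15 to 0.27, GLYK -0.13 to 0.21 and PLGG1 -0.27 to 0.0101. PGLP1 rests on 4 to 28 counts per library, the lowest depth among the 10.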

Other observations

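Other short motifs were counted in the same windows, from 250 bases before to 50 bases after the start, on both strands. ACGT, which lies within CACGTG, was in 8 of the 10 windows and in 49.9% of all 27443. TATAAA was in 1, that of BOU, against 52.1% of all, GATAAG in 1, that of AGT1, against 14.6%, and AAAATATCT in 0 against 2.82%. These are counts of letters in fixed windows, and no test was run on them.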
